A study of Mus musculus with 12 samples.

Results

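The MHC class I genes and the genes that load their peptides were followed through 3 successive stages of early T cell development in the mouse thymus. The 10 genes were B2m, Tap1, Tap2, Tapbp, H2-K1, H2-D1, H2-Q2, H2-T23, Psmb8 and Psmb9. They were read by all probe sets of the array whose annotation carries exactly 1 gene symbol, that of one of the 10. This gave 26 of the 45101 probe sets of the array, for 9 of the 10 genes. H2-T23 had none, because both of its probe sets are annotated to a pseudogene as well. Signals exceeded the filter on dim values for 19 of the 26 probe sets, and these represent all 9 genes.

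The cells were double negative (DN) thymocytes, which carry neither CD4 nor CD8, from untreated female C57BL/6 mice of 5 to 6 weeks, with no genetic change named. DN2 cells were sorted as CD44+CD25+, DN3 cells as CD44-CD25+ and DN4 cells as CD44-CD25-. Before the sort CD4+ and CD8+ cells were removed on magnetic columns, and the gate left out cells positive for a lineage stain against NK1.1, CD3, CD8, CD4 and the T cell receptor of gamma-delta cells. Each of 4 independent sorts pooled 4 mice and gave 1 array per stage, so the 12 arrays form 3 groups of 4 that are matched by sort. A pool averages its 4 animals, and the spread between sorts is therefore not the spread between single mice. The comparisons asked which of these transcripts differed in DN3 against DN2, in DN4 against DN3 and in DN4 against DN2.

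An MHC class I molecule consists of a heavy chain, the light chain beta-2 microglobulin and a short peptide, and it shows that peptide to CD8 T cells and natural killer cells. The peptides are cut by the proteasome, carried into the endoplasmic reticulum by the TAP transporter and loaded with the help of tapasin. In the thymus, class I on stromal and other presenting cells selects CD8 T cells, while immature cortical thymocytes themselves are known to carry little class I on their surface.

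The genes lie on 2 chromosomes, and most of them share one region. In GRCm38.p6, the assembly of C57BL/6J, B2m lies at chr2:122147687-122153082. The other 9 lie within the major histocompatibility complex on chromosome 17, in the order Tapbp (chr17:33919478-33929290), H2-K1 (chr17:33996012-34000619), Psmb9 (chr17:34182030-34187330), Tap1 (chr17:34187556-34197225), Psmb8 (chr17:34198195-34201454), Tap2 (chr17:34204479-34216321), H2-D1 (chr17:35263094-35267497), H2-Q2 (chr17:35342307-35346764) and H2-T23 (chr17:36029977-36032701). Psmb9 and Tap1 point away from each other and are separated by 225 bases.

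Promoter stretches of 4 of the genes are shown because these genes moved in different ways between the stages. They come from RefSeq on GRCm38.p6 and lie before the annotated gene start. Capitals mark matches to motifs that were searched on both strands within 250 bases before and 50 after the start.
H2-D1: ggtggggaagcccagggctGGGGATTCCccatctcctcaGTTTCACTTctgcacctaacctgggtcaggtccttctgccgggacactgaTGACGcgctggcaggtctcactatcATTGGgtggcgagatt
H2-Q2: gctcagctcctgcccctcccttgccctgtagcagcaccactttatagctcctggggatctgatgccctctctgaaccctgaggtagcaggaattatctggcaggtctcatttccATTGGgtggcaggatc
B2m: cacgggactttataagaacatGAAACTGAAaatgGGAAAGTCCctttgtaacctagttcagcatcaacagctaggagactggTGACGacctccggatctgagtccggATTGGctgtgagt
Tap1: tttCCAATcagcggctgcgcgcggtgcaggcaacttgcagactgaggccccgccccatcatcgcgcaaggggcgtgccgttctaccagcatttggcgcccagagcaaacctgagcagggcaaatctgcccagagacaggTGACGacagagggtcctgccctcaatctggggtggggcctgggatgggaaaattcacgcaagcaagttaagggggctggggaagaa
All are written 5′ to 3′ on the plus strand. The stretches span chr17:35262904-35263033 for H2-D1, chr17:35342112-35342241 for H2-Q2, chr2:122147527-122147646 for B2m and chr17:34187331-34187555 for Tap1. The Tap1 stretch is the whole interval up to the start of Psmb9.

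The motifs were GAAANNGAA (a core of the interferon response element), GGNNNTTCC (a core of the kappaB site), TTCNNNGAA (the gamma-activated site), TGACG (a core of the cyclic AMP response element) and CCAAT. A further pattern, GTTTCNNTT, was chosen after the sequences had been read. Among 32851 promoter windows of the same length, the shares with a match were 8.56%, 18.5%, 8.3%, 20.8%, 37.4% and 5.77% in that order. The H2-D1 stretch holds GGNNNTTCC, GTTTCNNTT, TGACG and an inverted CCAAT, printed as ATTGG. The H2-Q2 stretch, aligned on its own inverted CCAAT, holds that match alone. The B2m stretch holds GAAANNGAA, an inverted GGNNNTTCC, TGACG and an inverted CCAAT, and the Tap1 stretch holds CCAAT and TGACG. The corresponding 130 bases of H2-K1, chr17:34000348-34000477 and inside its longest annotated extent, have the same kinds of match as H2-D1 and 90.0% identical bases (117 of 130). Against H2-Q2 the identity was 54.3% for H2-K1 (76 of 140 aligned columns) and 57.2% for H2-D1 (83 of 145). Of the other members, Psmb8 had a match to TTCNNNGAA, Tapbp had CCAAT and H2-T23 had GAAANNGAA and CCAAT. A match describes these letters only, and an absent match says nothing of which factors bind.

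Values below are linear probe set signals after quantile normalization, and each difference is one of log2(signal + offset) values, later stage minus earlier stage. That scale understates the change of dim genes. A probe set was called where the adjusted p of limma, with Benjamini-Hochberg adjustment over all 24132 probe sets tested, was under 0.05. Probe set names are the array's own. Those ending in _x_at hold probes that can match several similar transcripts, which applies to 13 of the 26 probe sets and 9 of the 19 tested. The levels of different probe sets are not comparable with each other, and in sorted populations fewer cells of a type and less RNA per cell cannot be told apart.

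In DN4 against DN2 most of the class I probe sets were lower, and one gene, H2-Q2, was higher. In DN3 against DN2, 1 of the 19 tested probe sets was higher and 3 were lower, against 3.15% higher and 3.96% lower among all probe sets tested. In DN4 against DN3, 1 was higher and 9 were lower, where 4.41% and 6.82% of all were higher and lower. In DN4 against DN2, 1 was higher and 14 were lower, where 14.1% and 13% of all were. The median log2 difference of the 19 was -0.45, -0.50 and -0.86 in these 3 comparisons, and that of all probe sets was 0.03, 0.03 and 0.05. With sort as a block the lower calls were 9, 10 and 16, and the higher call was 1 each time. Calls among all probe sets rose with the block too, to 7.47% higher and 7.32% lower in DN3 against DN2, 10.8% and 12.3% in DN4 against DN3, and 20.9% and 18.4% in DN4 against DN2. The 4 arrays of one stage did not overlap those of the other for 10, 10 and 15 of the 19 probe sets, against 14.6%, 20.2% and 27.6% of all probe sets tested. Several probe sets of H2-K1 and H2-D1 can measure each other's transcripts, so these counts are not counts of genes. Counted once per gene by its brightest probe set, 1 of 9 genes was higher at each comparison, and 2, 4 and 6 were lower. The shares of 11171 genes so represented were 3.7% higher and 5.34% lower, 5.5% and 7.73%, and 16% and 15.3%. With sort as a block they were 7.98% and 9.31%, 13.1% and 13.3%, and 23.1% and 20.6%.

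**Figure D1:**
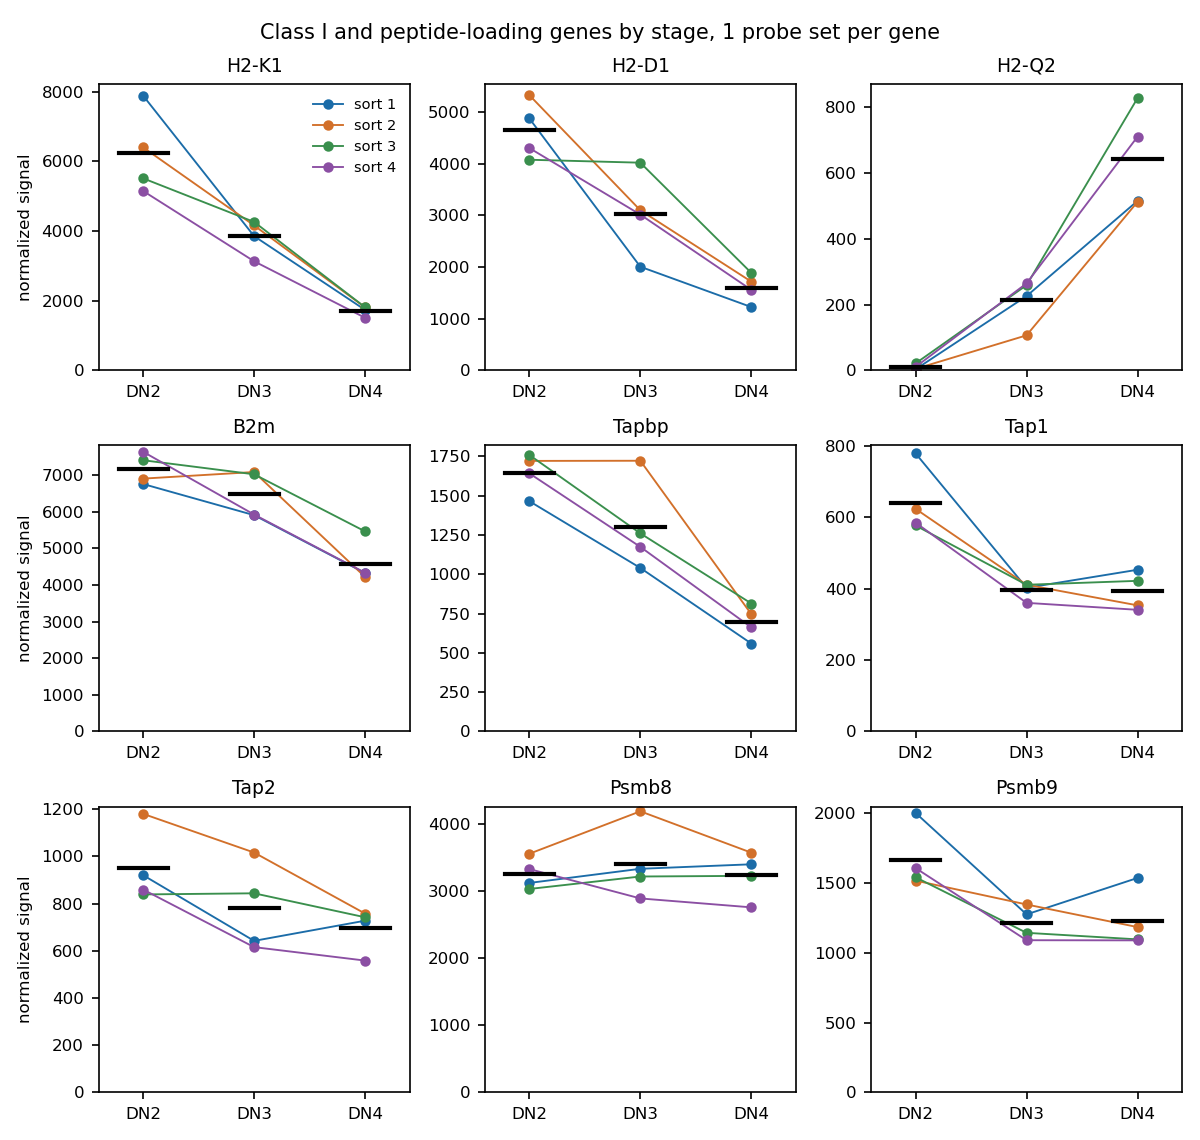
Normalized signal (linear, from 0) of the brightest probe set of each of 9 genes in DN2, DN3 and DN4, 1 point per array, thin lines joining arrays of one sort and black bars marking the mean of 4. H2-K1, H2-D1, B2m and Tapbp are lower in DN4 than in DN3, Tap1 is lower from DN3, the Psmb8 stages overlap, and all H2-Q2 signals are at most 21.25 in DN2 and at least 512.8 in DN4.

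H2-K1 encodes a classical class I heavy chain, the part of the molecule that binds the peptide. Its brightest probe set, 1425336_x_at, gave signals of 7889, 6404, 5515 and 5152 in DN2, then 3855, 4162, 4262 and 3133 in DN3, and 1736, 1808, 1812 and 1510 in DN4. Every DN4 array lay below every DN3 array, and every DN3 array below every DN2 array. It fell at both steps, with log2 differences of -0.69 in DN3 against DN2 (SE 0.156, adjusted p = 0.0203), -1.16 in DN4 against DN3 (adjusted p = 0.000894) and -1.84 in DN4 against DN2 (adjusted p = 6.41e-06, 3.59-fold). The call in DN3 against DN2 was lost without replicate 2 of DN2 (adjusted p = 0.0501) or replicate 4 of DN3 (adjusted p = 0.0624). Over all arrays with sort as a block it had adjusted p = 0.00657.

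Of the 19 tested probe sets, the lowest difference in DN4 against DN2 came from another for H2-K1, 1427746_x_at. Its signals were 3760, 1227, 1936 and 2333 in DN2, 693.4, 700.9, 946.6 and 645.2 in DN3, and 200.8, 213.4, 225.9 and 217.2 in DN4. The DN2 arrays were the most scattered and the DN4 arrays nearly level, and no stage overlapped another. The log2 differences were -1.53 (SE 0.267, adjusted p = 0.00453), -1.76 (adjusted p = 0.00186) and -3.29 (adjusted p = 4.72e-06, 9.75-fold). Without between-array normalization the first step missed the threshold for both probe sets (adjusted p = 0.258 and 0.0533).

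The other H2-K1 probe sets were 1451931_x_at and 1450534_x_at. The first had 3445, 3839, 3253 and 3658 in DN2, 1467, 2570, 2441 and 2313 in DN3, and 815.6, 1232, 1436 and 1196 in DN4, with no overlap between stages. It fell by 0.90 in DN4 against DN3 (adjusted p = 0.0156, or 0.00407 with sort as a block), a call lost without replicate 2 of DN3 (adjusted p = 0.0521), and fell by 1.62 in DN4 against DN2 (adjusted p = 0.000137). In DN3 against DN2 its difference was -0.72 with adjusted p = 0.055, and 0.014 with sort as a block or 0.0314 without replicate 1 of DN4. The dim probe set 1450534_x_at had signals of 17.92 to 78.41, and it was called only in DN4 against DN2 (-0.86, adjusted p = 0.0373). That call was lost in 5 of the 12 fits that each left out 1 array (DN2 replicates 1, 3 or 4, or DN4 replicates 1 or 3, adjusted p 0.0673 to 0.0945). Over all arrays with sort as a block its adjusted p was 0.0177.

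H2-D1, the other classical heavy chain of this strain, also stepped down. Its brightest probe set, 1425545_x_at, had 4874, 5324, 4074 and 4301 in DN2, 2005, 3097, 4017 and 3013 in DN3, and 1225, 1716, 1885 and 1557 in DN4. The stages did not overlap, although the highest DN3 array came close to the lowest DN2 array. The probe set fell by 0.90 in DN4 against DN3 (SE 0.205, adjusted p = 0.0164) and fell by 1.55 in DN4 against DN2 (adjusted p = 0.000205, 2.92-fold). In DN3 against DN2 the difference was -0.65 with adjusted p = 0.0841, and 0.0413 with sort as a block. It was called there without replicate 3 of DN3 (adjusted p = 0.0405).

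The only tested H2-D1 probe set without a suffix for shared probes was 1426324_at. Its signals were 537.6, 312.2, 453.4 and 644.8 in DN2, 269.1, 260.6, 441.3 and 392.3 in DN3, and 138.7, 127.4, 235.9 and 203.5 in DN4. DN2 and DN3 overlapped, and all DN4 arrays lay below both. It fell by 0.94 in DN4 against DN3 (SE 0.267, adjusted p = 0.0429) and fell by 1.43 in DN4 against DN2 (adjusted p = 0.00208), and DN3 against DN2 was -0.50 (adjusted p = 0.326). The call between DN4 and DN3 was lost in 8 of the 12 fits that left out 1 array (DN2 replicate 3, any DN3 replicate, or DN4 replicates 1, 2 or 4, adjusted p 0.0528 to 0.112). Those fits had no block, and over all 12 arrays with sort as a block the adjusted p was 0.00579.

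Of the remaining tested H2-D1 probe sets, 1451784_x_at fell by 0.91 in DN4 against DN3 (adjusted p = 0.0198, or 0.00589 with sort as a block) and fell by 1.60 in DN4 against DN2 (adjusted p = 0.000231). Its call in DN4 against DN3 was lost without replicate 2 or 3 of DN3 (adjusted p = 0.0604 and 0.0581), and its -0.69 in DN3 against DN2 had adjusted p = 0.0802, or 0.0241 with sort as a block and 0.0463 without replicate 1 of DN4. For 1451683_x_at the signals differed between sorts within each stage: 418.2, 529.7, 710.7 and 951.2 in DN2, 200.1, 360.4, 496.3 and 400.9 in DN3, and 91.93, 154.9, 223.7 and 184.3 in DN4. Neighbouring stages overlapped in this probe set, yet each sort on its own was lower at both steps. It fell by 1.96 in DN4 against DN2 (adjusted p = 0.00122). The single steps of -0.84 and -1.12 had adjusted p = 0.177 and 0.0511, and 0.00605 and 0.00133 with sort as a block. Leaving out DN2 replicate 1 or 4, DN3 replicate 1 or DN4 replicate 3 gave a call in DN4 against DN3 (adjusted p 0.0247 to 0.0457). The dim 1450170_x_at fell by 1.47 in DN4 against DN2 (adjusted p = 0.0243, or 0.0198 with sort as a block) with overlapping groups, in 3 of 4 sorts, and lost the call in 4 of the 12 fits that left out 1 array (DN2 replicate 2, or DN4 replicates 1, 2 or 4, adjusted p 0.0608 to 0.0661). The other 4 H2-D1 probe sets, with signals of 0.6743 to 21.6, were not tested.

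Across the 9 tested probe sets of H2-K1 and H2-D1, 2 were called lower in DN3 against DN2, 6 in DN4 against DN3 and 9 in DN4 against DN2. Among all probe sets tested, 3.96%, 6.82% and 13% were lower in these comparisons. A probe set annotated to both genes, 1424948_x_at, averaged 1801 in DN2, 615.2 in DN3 and 239.5 in DN4. Its differences were -1.46 in DN3 against DN2 (adjusted p = 0.0173), -1.41 in DN4 against DN3 (adjusted p = 0.0169) and -2.87 in DN4 against DN2 (adjusted p = 6.1e-05). All tested H2-K1 probe sets carry the _x_at suffix, so how much of each signal comes from H2-K1 and how much from H2-D1 or a related gene was not tested.

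**Figure D2:**
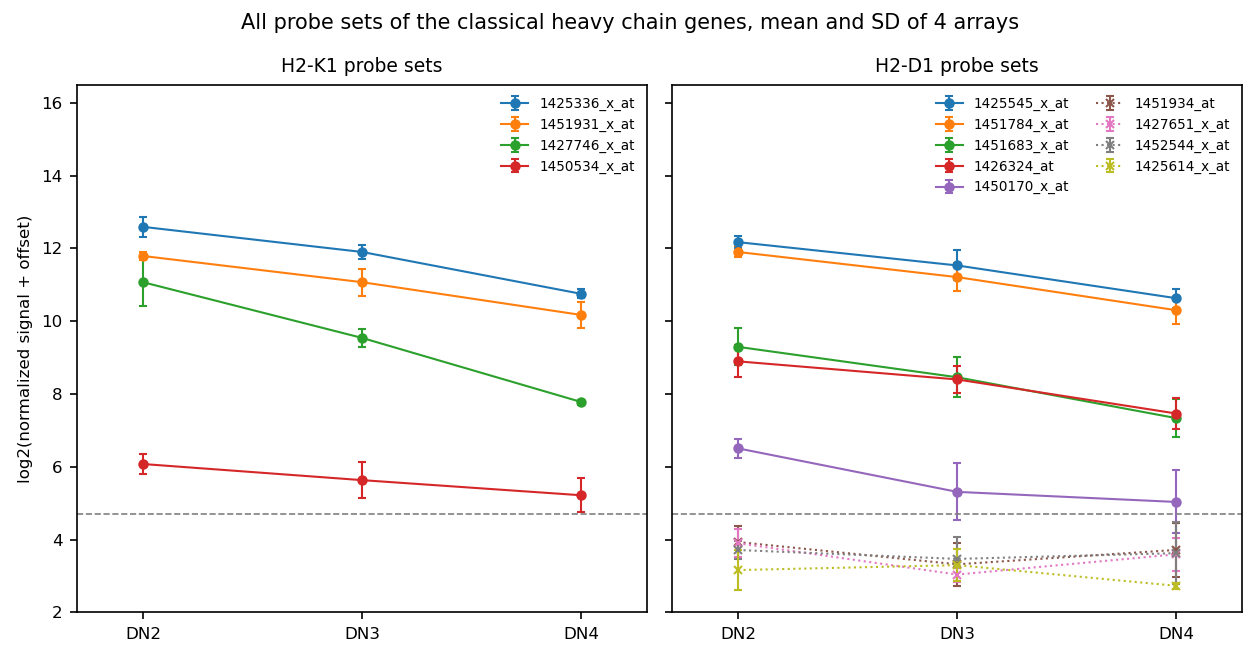
Mean ± SD (n = 4 arrays) of log2(signal + offset) in DN2, DN3 and DN4 for all 4 H2-K1 and all 9 H2-D1 probe sets, with crosses and dotted lines for those not tested and a dashed line at the filter level of 4.70. All 9 tested probe sets slope down to DN4, while the 4 dim H2-D1 probe sets lie about or under the dashed line.

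H2-Q2 encodes a heavy chain of the Q region, counted among the nonclassical class I genes. Its 1 probe set of a single symbol, 1418734_at, had signals of 3.357, 4.65, 21.25 and 10.58 in DN2, 226, 106.7, 259.3 and 264.7 in DN3, and 515.7, 512.8, 828.3 and 711 in DN4. The DN2 arrays averaged 9.96 ± 8.16 (SD, n = 4), with 1 of them above the filter level of 20.52. All DN3 arrays exceeded all DN2 arrays, and all DN4 arrays exceeded all DN3 arrays. H2-Q2 was at least 7.99-fold higher in DN3 than in DN2 when DN2 is set at the filter level, and at least 24.4-fold higher in DN4 than in DN2. The adjusted p was 4.54e-05 in DN3 against DN2 and 9.07e-07 in DN4 against DN2. The step of DN4 against DN3 was 1.61 (SE 0.363, adjusted p = 0.0155, 3.05-fold), higher in all 4 sorts. A probe set naming Gm38417, H2-Q2 and H2-D1, 1422348_at, did not rise, with means of 11.13 in DN2, 9.25 in DN3 and 8.525 in DN4. That probe set was below the filter on all 12 arrays and was not tested.

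Transcripts of both CD8 chains, markers of the next, double positive, stage, were higher in DN4 as well, while Cd4 stayed below the filter. Cd8b1, a chain of the CD8 co-receptor, averaged 3.79 in DN2 and 18.27 in DN3, both below the filter level, and 313.1 in DN4. Cd8b1 was called higher in DN4 against DN3 (3.77, adjusted p = 2.92e-05). Its call in DN3 against DN2 (1.37, adjusted p = 0.0174) compares means that both lie below the filter level, so no step size is read from it. Cd8a, the other chain, averaged 22.59 in DN2, 33.72 in DN3 and 70.46 in DN4. It was not called in DN3 against DN2 (0.48, adjusted p = 0.326) and was higher in DN4 against DN3 (0.97, adjusted p = 0.0326). Summed over 3 double positive markers, Cd8a, Cd8b1 and Cd4, which was below the filter, the signal ranged over 18.73 to 36.65 in DN2, 41.54 to 64.73 in DN3 and 317.1 to 508.8 in DN4. Whether such cells account for any of the H2-Q2 signal was not tested.

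Other heavy chain genes of the Q and T regions are read by probe sets that name several genes, of which 8 were above the filter. The one for H2-Q9 and H2-Q7, 1418536_at, averaged 1200 in DN2, 513.3 in DN3 and 154.5 in DN4, and its differences in the 3 comparisons were -1.23, -1.75 and -2.98 (adjusted p = 0.0096, 0.00108 and 4.88e-06). These are the genes of the Qa-2 antigen. The one for H2-Q6 and H2-Q8, 1431008_at, averaged 542.9 in DN2, 102.6 in DN3 and 96.49 in DN4. It fell by 2.33 in DN3 against DN2 (adjusted p = 1.31e-05), and DN4 against DN3 was -0.07 (adjusted p = 0.841). A probe set naming H2-Q6, H2-Q8 and H2-Q4, 1451644_a_at, fell in DN4 against DN2 (-1.46, adjusted p = 0.0144), with its DN4 mean below the filter. Its difference in DN4 against DN3 was -0.92, lower in 4 of 4 sorts (adjusted p = 0.146, or 0.0332 with sort as a block). Neither of the probe sets for H2-T9, H2-T22 and H2-T10 was called in any comparison. For 1449875_s_at DN4 against DN2 was -0.32 (adjusted p = 0.143). For 1439121_at DN4 against DN3 was -1.07, lower in 4 of 4 sorts (adjusted p = 0.115, or 0.032 with sort as a block).

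H2-T23 encodes the heavy chain of Qa-1, which presents peptides from the leader sequences of other class I chains. Its 2 probe sets, both shared with the pseudogene H2-T-ps, disagreed. The brighter, 1449556_at, had 2144, 2142, 2070 and 1872 in DN2, 884.9, 1094, 1099 and 878.6 in DN3, and 825.5, 748.7, 1211 and 718.2 in DN4. It fell by 1.06 in DN3 against DN2 (adjusted p = 0.00238) without overlap, while DN4 and DN3 overlapped (-0.20, adjusted p = 0.487). The dimmer, 1419658_at, had 52.16, 68.54, 116.4 and 93.99 in DN2, 69.94, 77.72, 99.59 and 107.6 in DN3, and 209.4, 134.2, 270.6 and 239.6 in DN4. Its DN4 arrays lay above all others, with a rise of 1.19 in DN4 against DN3 (adjusted p = 0.0137) and of 1.32 in DN4 against DN2 (adjusted p = 0.00298). In DN4 against DN2 the brighter probe set fell by 1.26 (adjusted p = 0.000211), so no single direction can be given for H2-T23.

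**Figure D3:**
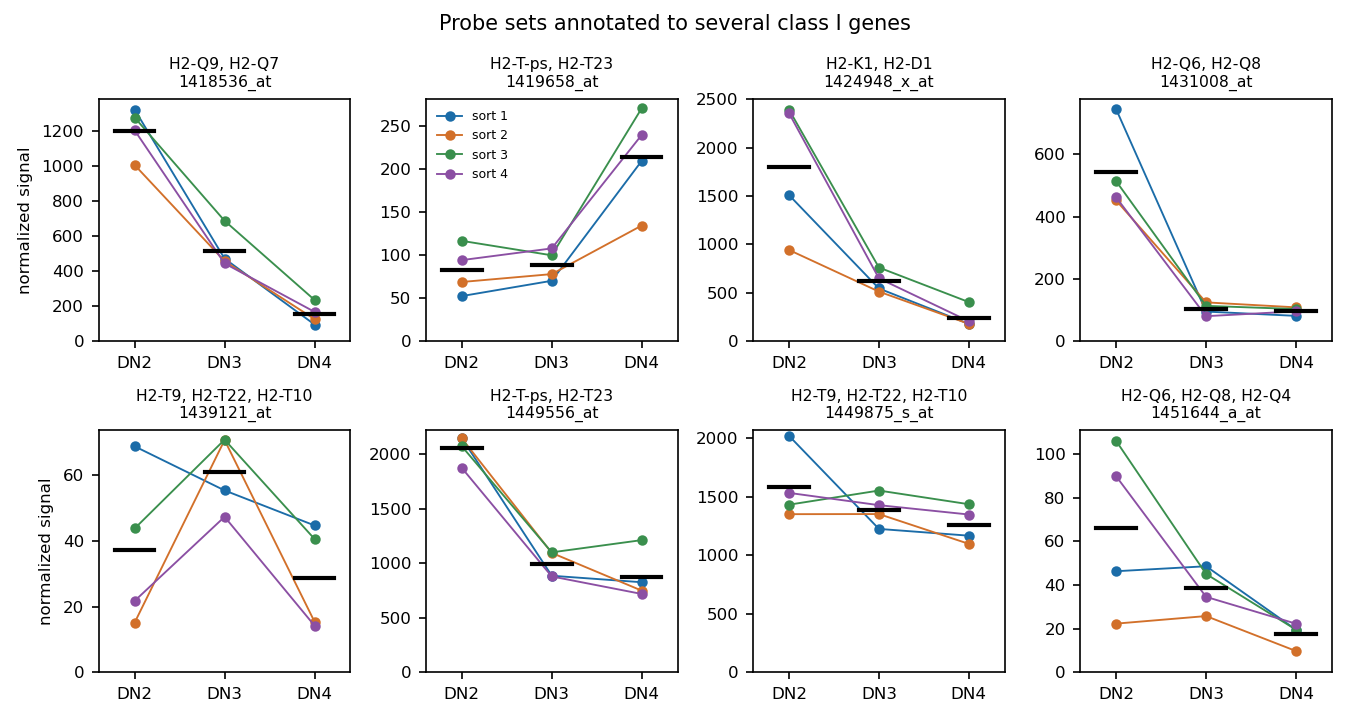
Normalized signal per array in DN2, DN3 and DN4 of the 8 tested probe sets that name several class I genes, with lines joining arrays of one sort. The probe sets for H2-Q9 and H2-Q7, for H2-K1 and H2-D1 and for H2-Q6 and H2-Q8 are lower in DN4 than in DN2, and the 2 probe sets shared by H2-T23 and H2-T-ps run in opposite directions.

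B2m encodes beta-2 microglobulin, the light chain that every class I heavy chain needs to reach the surface. Its probe set 1449289_a_at had 6753, 6900, 7402 and 7633 in DN2, 5902, 7080, 7018 and 5919 in DN3, and 4322, 4214, 5459 and 4329 in DN4. DN2 and DN3 overlapped, and all DN4 arrays lay below both. It fell by 0.50 in DN4 against DN3 (SE 0.125, adjusted p = 0.0246, 1.42-fold) and fell by 0.65 in DN4 against DN2 (adjusted p = 0.00248), with -0.15 in DN3 against DN2 (adjusted p = 0.565). The fall in DN4 against DN3 missed the threshold in 5 of the 12 fits that left out 1 array (DN3 replicates 2 or 3, or DN4 replicates 1, 2 or 4, adjusted p 0.0578 to 0.0754). Over all arrays with sort as a block its adjusted p was 0.00997. With arrays centred on their median in place of quantile normalization, the probe set was not called (-0.31 with adjusted p = 0.304 in DN4 against DN3, and -0.33 with adjusted p = 0.196 in DN4 against DN2).

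The other B2m probe set, 1452428_a_at, had 5233, 5407, 5477 and 6022 in DN2, 3828, 4741, 4696 and 4313 in DN3, and 3102, 2865, 3231 and 3236 in DN4. Here the 3 stages did not overlap. The differences were -0.50 in DN4 against DN3 (adjusted p = 0.0161) and -0.83 in DN4 against DN2 (adjusted p = 0.000237, 1.78-fold). The fall in DN4 against DN3 was not called without replicate 2 or 3 of DN3 (adjusted p = 0.0536 and 0.05), or with arrays centred on their median (-0.35, adjusted p = 0.212). Its adjusted p with sort as a block was 0.00815. In DN3 against DN2 the difference was -0.34, with adjusted p = 0.102 and 0.0477 with sort as a block.

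Tapbp encodes tapasin, which holds an empty class I molecule at the TAP transporter until a peptide fits. Its bright probe set, 1421812_at, had 1465, 1721, 1759 and 1642 in DN2, 1040, 1722, 1260 and 1174 in DN3, and 558.8, 745.3, 813.7 and 661.6 in DN4. DN3 sort 2 lay at the DN2 level, and all DN4 arrays lay below the rest. Tapbp fell by 0.89 in DN4 against DN3 (SE 0.169, adjusted p = 0.00677, 1.85-fold) and fell by 1.25 in DN4 against DN2 (adjusted p = 0.000238, 2.38-fold). DN3 against DN2 was -0.36 (adjusted p = 0.247). Its dim probe set 1450378_at averaged below a signal of 100 at every stage and was not called (-0.54 in DN4 against DN2, adjusted p = 0.0554, or 0.0327 with sort as a block, 0.0374 without replicate 2 of DN3 and 0.0453 without replicate 1 of DN4).

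Tap1 and Tap2 encode the paired chains of the peptide transporter. Tap1, by 1416016_at, had 779.4, 623.9, 577.2 and 585.2 in DN2, 402.4, 411.0, 411.0 and 360.3 in DN3, and 453.1, 353.3, 422.0 and 340.8 in DN4. All DN3 and all DN4 arrays lay below the DN2 arrays, while DN3 and DN4 overlapped. Tap1 fell by 0.68 in DN3 against DN2 (SE 0.138, adjusted p = 0.0111, 1.60-fold) and fell by 0.70 in DN4 against DN2 (adjusted p = 0.00288), with -0.02 in DN4 against DN3 (adjusted p = 0.938). Without between-array normalization the first fall was -0.52 (adjusted p = 0.331). The 3 other Tap1 probe sets, with signals of 0.8392 to 16.75, were below the filter on all 12 arrays.

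Tap2, by 1453913_a_at, had 920.2, 1180, 838.6 and 859.4 in DN2, 641.9, 1016, 843.4 and 615.4 in DN3, and 727.4, 757.4, 741.8 and 558.4 in DN4. DN3 overlapped both other stages, and all DN4 arrays lay below all DN2 arrays. The differences were -0.30, -0.14 and -0.44 (adjusted p = 0.401, 0.673 and 0.0969), and with sort as a block the last had adjusted p = 0.0215. Tap2 has no entry in the promoter table used here.

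Psmb8 and Psmb9 encode catalytic subunits that replace constitutive ones in the immunoproteasome, the form of the proteasome known for cutting class I peptides. Psmb8, by 1422962_a_at, had 3123, 3558, 3033 and 3330 in DN2, 3334, 4191, 3219 and 2892 in DN3, and 3401, 3574, 3229 and 2759 in DN4. The 3 stages overlapped throughout, with differences of 0.05, -0.07 and -0.01 (SE 0.138, adjusted p = 0.889, 0.805 and 0.958). Its dimmer probe set 1444619_x_at was not called either (0.08, -0.09 and -0.01, adjusted p = 0.906, 0.844 and 0.975).

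Psmb9, by 1450696_at, had 2002, 1517, 1541 and 1607 in DN2, 1275, 1346, 1143 and 1090 in DN3, and 1536, 1184, 1096 and 1089 in DN4. Every DN3 array lay below every DN2 array, and DN4 sort 1 lay within the DN2 range. Psmb9 fell by 0.45 in DN4 against DN2 (SE 0.147, adjusted p = 0.0414, or 0.00911 with sort as a block), a call lost in 7 of the 12 fits that left out 1 array (DN2 replicates 1, 3 or 4, DN3 replicate 3, or DN4 replicates 2, 3 or 4, adjusted p 0.0537 to 0.107) and with arrays centred on their median (adjusted p = 0.146). The difference was -0.45 in DN3 against DN2 (adjusted p = 0.0924, or 0.0215 with sort as a block) and 0.01 in DN4 against DN3 (adjusted p = 0.986). Psmb9 shares with Tap1 the intergenic stretch printed for Tap1.

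**Figure D4:**
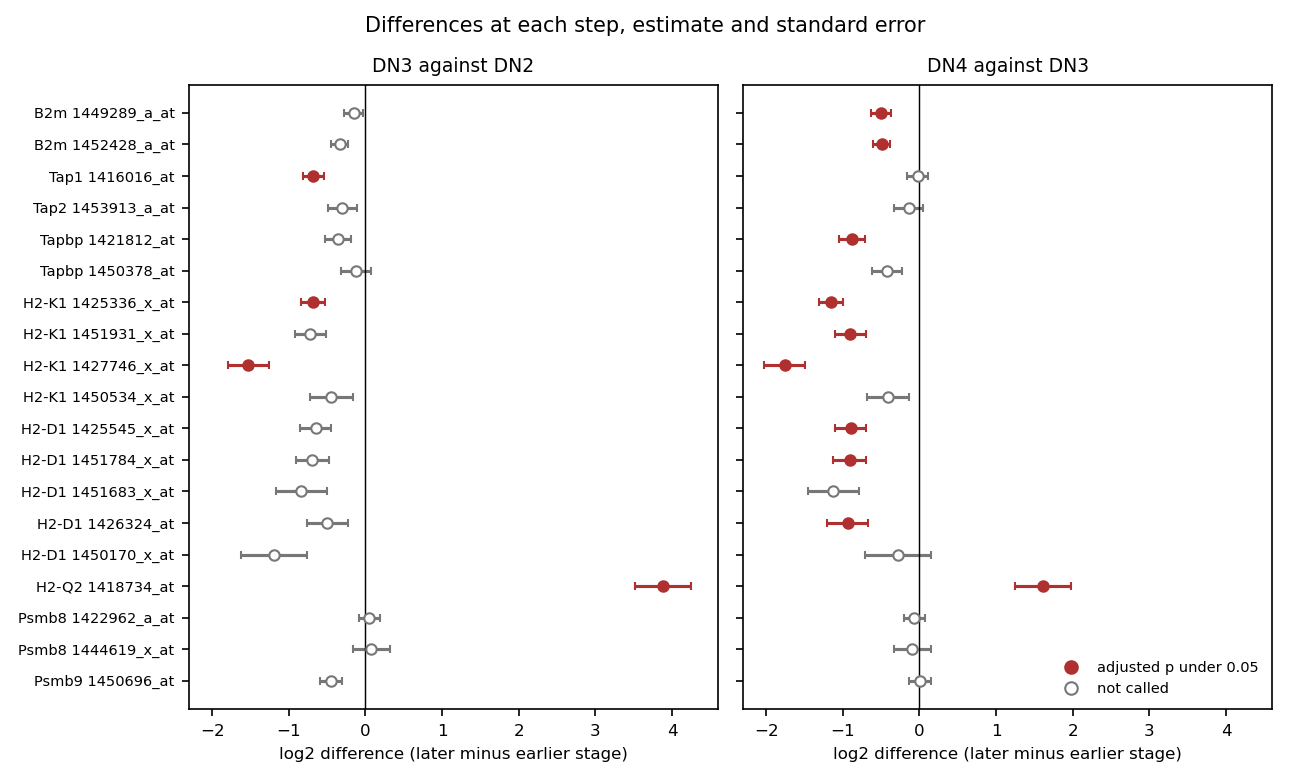
Log2 difference ± SE of the 19 tested probe sets for DN3 against DN2 and for DN4 against DN3, from the fit over all 12 arrays, with called probe sets in red. H2-Q2 is the only called probe set on the positive side, at both steps, the heavy chains, B2m and the bright Tapbp probe set lie on the negative side at DN4 against DN3, and Tap1 lies near 0 there.

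Beyond the 10 genes, 5 lists of related genes were read by the brightest probe set of each gene. Of 7 tested genes for other heavy chains, 1 was called higher and 3 lower in DN4 against DN2 (median -0.98, against 0.06 for all genes, of which 16% were higher and 15.3% lower). In DN4 against DN3 0 were called by limma (3 at an unadjusted p under 0.05), and with sort as a block Cd1d1 was lower (adjusted p = 0.0062). H2-M3, which presents formylated peptides, averaged 568.2 ± 37.4 in DN2, 336.8 ± 97 in DN3 and 286.6 ± 45.2 in DN4 (SD, n = 4 each). It fell by 0.80 in DN3 against DN2 (adjusted p = 0.0385), the single called gene of the list at that step, where 5.34% of all genes were lower. Cd1d1, which presents lipids, fell to 594.2 ± 136 in DN4, against 1239 ± 485 in DN2 (SD, n = 4 each, adjusted p = 0.013). Hfe, known from iron uptake, fell by 1.16 in DN4 against DN2 (adjusted p = 0.0194), with its DN4 mean under the filter. Mr1, which presents vitamin metabolites, rose by 0.69 in DN4 against DN2 (adjusted p = 0.00993). H2-Q5 and H2-Bl were not called (-1.35 and -0.16, adjusted p = 0.0636 and 0.717).

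The loading chaperones and the genes of the proteasome and its activators were read as separate lists. Of 6 loading chaperones and trimming genes, 0 were called by limma at either single step. Of all genes, 3.7% were higher and 5.34% lower in DN3 against DN2, and 5.5% and 7.73% in DN4 against DN3. At an unadjusted p under 0.05 the list held 4 in DN3 against DN2 and 0 in DN4 against DN3. With sort as a block 1 was higher in DN3 against DN2, where 7.98% of all genes were. In DN4 against DN2 1 of the 6 was called higher, near the 16% of all genes. It was Pdia3, which encodes ERp57 of the loading complex (0.51, adjusted p = 0.00959). With sort as a block 2 were higher and 2 lower there, against 23.1% and 20.6% of all genes. Canx (calnexin, 0.32) and Bcap31 (an export receptor of the endoplasmic reticulum, -0.30) were not called (adjusted p = 0.0561 and 0.0948, and 0.0183 and 0.0167 with the block). Other tested probe sets of Canx differed in direction in DN4 against DN2 (-0.12 and 0.89).

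Of 8 proteasome genes, 0 were called by limma in DN3 against DN2 (3 at an unadjusted p under 0.05, and 1 higher with sort as a block). Of all genes, 3.7% were higher and 5.34% lower there, and 7.98% were higher with the block. In DN4 against DN3 1 was higher (2 with the block), where 5.5% of all genes were (13.1% with the block). In DN4 against DN2 3 were higher and 1 was lower, with a median difference of 0.18. The shares of all genes in DN4 against DN2 were 16% higher and 15.3% lower. Psmb5, the constitutive subunit that Psmb8 replaces, averaged 2790 ± 131 in DN2, 2954 ± 66.1 in DN3 and 3755 ± 208 in DN4. It rose by 0.34 in DN4 against DN3 (adjusted p = 0.0444) and by 0.43 in DN4 against DN2 (adjusted p = 0.0075). Psmb7, the counterpart of Psmb10, rose by 0.48 (adjusted p = 0.00854), and Psme3, a nuclear proteasome activator, rose by 1.11 (adjusted p = 0.000851), both in DN4 against DN2. Psme1, a subunit of the interferon-inducible activator, fell by 0.48 (adjusted p = 0.0106). Psmb6, the counterpart of Psmb9, and the assembly factor Pomp were not called (0.11 with adjusted p = 0.639, and 0.06 with SE 0.159). Psmb10, named after its values were seen, was not called either (-0.22, adjusted p = 0.512).

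Among 20 regulators of class I genes and of interferon signalling, 1 was lower in DN3 against DN2 and 3 in DN4 against DN3. Of all genes, 5.34% and 7.73% were lower at these steps. In DN4 against DN2 1 was higher and 4 were lower, or 3 and 5 with sort as a block, with a median of -0.22. Over all genes 16% were higher and 15.3% lower, or 23.1% and 20.6% with the block, so the lower calls lie near the share of all genes. Nlrc5, the class I transactivator that acts at heavy chain, B2m, Tap1 and Psmb9 promoters, averaged 209.7 ± 27.5 in DN2, 116.2 ± 17.9 in DN3 and 57.51 ± 18.8 in DN4. Its differences were -0.83 in DN3 against DN2 (SE 0.205, adjusted p = 0.0304), -0.98 in DN4 against DN3 (adjusted p = 0.0105) and -1.81 in DN4 against DN2 (adjusted p = 6.26e-05). It was the 1 called gene of the list in DN3 against DN2. Irf9, which carries the signal of type I interferon to DNA, fell by 0.91 (adjusted p = 0.0029) and the interferon gamma receptor chain Ifngr1 fell by 0.92 (adjusted p = 0.00409) in DN4 against DN2. Irf8, a transcription factor of myeloid and B cells, rose by 0.64 (adjusted p = 0.00427). Irf1 and Nfyc, a subunit of the CCAAT-binding factor, were not called (-0.32 and 0.05, adjusted p = 0.227 and 0.769).

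Interferon-inducible genes held the most lower calls of the 5 lists. Of 19 tested, 3 were lower in DN3 against DN2, where 5.34% of all genes were. In DN4 against DN3 1 was higher and 3 were lower, against 5.5% and 7.73% of all genes. In DN4 against DN2 13 were lower, against 15.3% of all genes. The medians were -0.42, -0.54 and -0.90. With sort as a block the lower calls were 5, 7 and 14, where 9.31%, 13.3% and 20.6% of all genes were lower. Gbp2, a guanylate-binding protein, averaged 436.9 in DN2, 274.4 in DN3 and 131.6 in DN4, and fell by 1.70 in DN4 against DN2 (adjusted p = 2.98e-05). Oas1a, which senses double-stranded RNA, fell by 1.28 (adjusted p = 0.000209) in that comparison. Its relative Oasl2 fell by 2.47 (adjusted p = 0.00112), and Rtp4, a receptor-transporting protein, fell by 1.45 (adjusted p = 0.00208). Igtp, an interferon-induced GTPase, and Bst2, the virus-tethering protein tetherin, were not called (-0.51 and -0.58, adjusted p = 0.102 and 0.079, and for Bst2 0.00553 with the block). Ifit2, named after its values were seen, was the gene that rose in DN4 against DN3 (0.94, adjusted p = 0.0139).

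**Figure D5:**
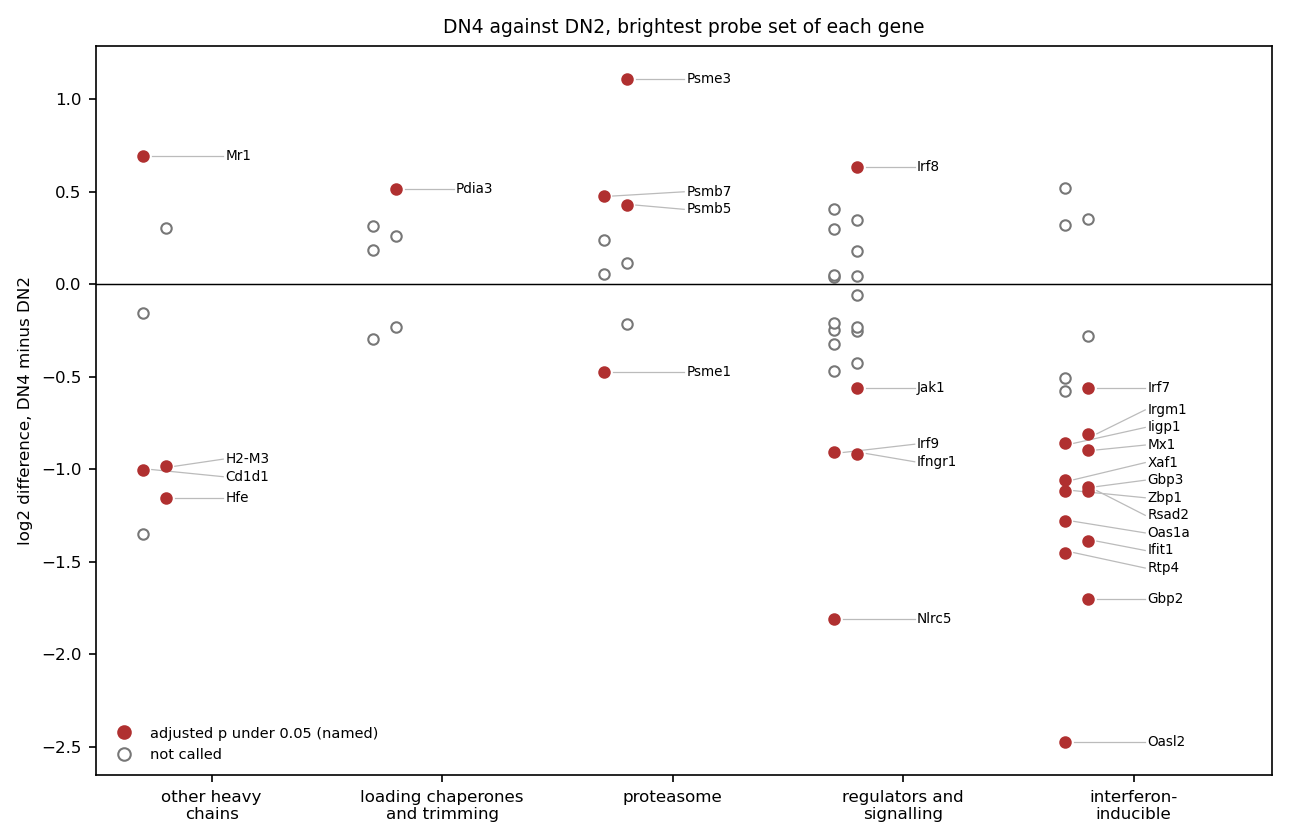
Log2 difference of DN4 minus DN2 for the genes of 5 related lists, 1 point per gene by its brightest probe set, with called genes in colour and named. Of the interferon-inducible genes 13 of 19 are called and lie below 0, while 3 of the 4 called proteasome genes lie above 0.

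Markers of other cell types moved between the stages as well, and their part in the class I signals was not tested. The summed signal of 4 natural killer cell genes, 2 of them above the filter, was 1578 to 1829 in DN2, 383.9 to 711.4 in DN3 and 84.47 to 103.5 in DN4. That of 7 myeloid genes, 6 above the filter, was 382.1 to 987.6 in DN2, 160 to 254.8 in DN3 and 101.5 to 192 in DN4. Both sums ran in the direction of the heavy chains, and few genes carried them. Nkg7 made up most of the natural killer sum (mean signals of 1642 in DN2, 549.7 in DN3 and 70.08 in DN4). Of the myeloid genes, Mpo averaged 219.1 in DN2, 13.19 in DN3 and 10.42 in DN4, while Csf1r averaged 35.04 in DN2, 44.13 in DN3 and 48.49 in DN4. Csf1r was not called in DN4 against DN2 (0.43, adjusted p = 0.0743), and another of its probe sets went the other way (-0.35). Mature alpha-beta T cell markers (6 genes) summed to 941.3 to 1169 in DN2, 373.8 to 549.6 in DN3 and 506.9 to 851.8 in DN4, highest in DN2 without overlap. The genes of this sum differed in direction. Cd52, S1pr1 and Klf2 had their highest mean in DN2, and Cd6, Ccr7 and Cd5 had theirs in DN4. Cd52, the brightest in DN2, averaged 506 in DN2, 158.6 in DN3 and 146.9 in DN4, and Cd6 averaged 65.76, 96.7 and 245.5. The sum of 7 genes of antigen-presenting and dendritic cells, 5 above the filter, overlapped between DN2 (381.2 to 866.8) and DN4 (271.7 to 1061), with 203.2 to 377.4 in DN3. The B cell sum (5 genes, 3 above the filter) was 216 to 278.6 in DN2, 193.8 to 239.8 in DN3 and 154.5 to 209.8 in DN4. It was lower in DN4 than in DN2 without overlap, and Cd79b made up most of it (means of 186.3 in DN2, 160.5 in DN3 and 121.6 in DN4). Pax5 and Blnk also had lower means in DN4 than in DN2, while Cd79a and Ms4a1 had higher ones. The sums for gamma-delta T cells (3 genes, 431.1 to 1178) and thymic epithelium (6 genes, 5 above the filter, 103.4 to 160.1) are ranges over the 12 arrays. Neither of the 2 erythroid genes passed the filter on at least 4 arrays, so neither was tested, and their sums were at most 85.79. Alas2 averaged 4.341 in DN2, 8.751 in DN3 and 47.07 ± 29.5 (SD) in DN4, where its mean lay above the filter level of 20.52. Hba-a1 averaged 6.513, 7.315 and 9.977. Defining markers that stayed below the filter included Ncr1 of natural killer cells, Itgam of myeloid cells, Cd79a of B cells, Siglech and Cd209a of dendritic cells and Psmb11 of thymic epithelium. Other genes of these lists were tested and called. Klrd1, Lyz2, Cd79b and Itgax fell in DN4 against DN2 (-1.19, -2.54, -0.59 and -2.64, adjusted p = 0.0232, 7.92e-05, 0.0205 and 1.61e-05). Ms4a1, Cd74 and Krt8 rose in DN4 against DN3 (adjusted p = 0.0356, 0.0229 and 0.0466). The sorted markers followed the gates, with Cd44 at mean signals of 725.3 in DN2, 49.47 in DN3 and 47.12 in DN4, and Il2ra, which encodes CD25, at 2358, 1414 and 119.9 for the same stages.

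The genes whose log2 signals ran most like each called member over the 12 arrays were listed by Pearson correlation among 11171 genes. The arrays share stage and sort, so these are descriptions. For H2-K1 they were Dpp4 (r = 0.984), Lpp (0.982) and Pdgfrb (0.981), and for H2-D1 Smox (0.981), Il17rb (0.978) and Sft2d2 (0.97). For H2-Q2 they were Sh2d1a (0.992), Trib2 (0.992) and Pvr (0.985). For B2m they were B3gnt2 (0.975), Taz (0.971) and Gpr18 (0.967), and for Tapbp Plekha7 (0.979), Trgv4 (0.978) and Parp14 (0.975). For Tap1 they were Ptger2 (0.975), Tpm4 (0.967) and Kctd10 (0.961), and for Psmb9 Rasa3 (0.943), Bmpr2 (0.932) and Ccdc50 (0.929).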

How the data were processed

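The table as deposited holds intensity values, on a linear scale, 1 for each probe set and array. GCOS, Affymetrix software, produced them, per the submitters' processing notes, and the sources used here give no version, algorithm or scaling. Per the labels' protocols, RNA from RNeasy Mini columns was amplified in 2 rounds of cDNA synthesis and hybridised to Mouse Genome 430 2.0 arrays. Groups and sort numbers come from the sample titles.

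Of 45101 probe sets, 64 were controls. A single symbol was annotated to 34945, several symbols to 932, and 9160 were not in the annotation table used here. Through Entrez identifiers, 34754 symbols were brought up to date with RefSeq on GRCm38.p6, and 204 were kept. After trimming 2% at each end, mean deposited signals were 129.2 to 212.4 on DN2 arrays, 171.9 to 232.9 on DN3 arrays and 130.2 to 162.3 on DN4 arrays, so arrays were quantile normalized. The log2 ratio of 3′ to 5′ Gapdh control probe sets, a sign of RNA quality, was 1.39 ± 0.32 for DN2, 1.04 ± 0.17 for DN3 and 1.16 ± 0.21 for DN4 (SD, n = 4 each). An offset of 5.556 (the 25th percentile of the table) was added before log2. Probe sets above the table's median (log2 4.70, signal 20.52) on at least 4 arrays were tested, 24132 in all. The brightest probe set, by mean signal, stood for a gene.

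One fit over the 12 arrays in limma 3.58.1 (lmFit, contrasts and eBayes, under R 4.3.3) gave the stage means and their differences, two-sided, with Benjamini-Hochberg adjustment and a threshold of 0.05. The number of arrays limits the precision. Per the labels, arrays of 1 sort share a source of cells. Deviations from stage means correlated at 0.249 to 0.389 over the 12 pairs of arrays of 1 sort and at -0.25 to 0.142 over 36 pairs of different sorts and stages, and 0 of 66 pairs of arrays were identical. The numbers therefore pair the arrays, and sort was a block in an alternative fit. Further alternatives were no normalization, median centring, an offset of 1, other filters, other ways to represent a gene, only the arrays compared, trend and robust settings, pairs of sorts alone and leaving out each array. Plots were made in Python 3.11.15 (matplotlib 3.10.9, pandas 2.3.3), and promoter stretches were aligned with Biopython 1.88.

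The members and lists were chosen with earlier results of these data known. Named from each list were all called genes where 4 or fewer were called, otherwise the 4 of smallest adjusted p, and the 2 brightest not called. Likeness was read for each called gene against the brightest probe sets of all genes.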

Additional observations from a re-analysis of the deposited data

Results flagged for a closer look

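Among the 57 groups of 4 arrays (19 tested probe sets at 3 stages), 4 held an array whose gap to its nearest neighbour, as a share of the group's range, exceeded Dixon's critical value for 4 values. Chance alone gives this in about 1 in 20 such groups. For B2m, 1449289_a_at was highest in DN4 sort 3, at 5459 (gap over range 0.895). For the dim H2-D1 probe set 1450170_x_at the same array was highest, at 74.86 (0.917), and without it the probe set was called in DN3 against DN2 as well (adjusted p = 0.0475). For Tap1, 1416016_at was lowest in DN3 sort 4, at 360.3 (0.84). For Tap2, 1453913_a_at was lowest in DN4 sort 4, at 558.4 (0.869).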

How the results depend on the processing

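The fit without a block called 4, 10 and 15 of 19 probe sets in DN3 against DN2, DN4 against DN3 and DN4 against DN2. With sort as a block 10, 11 and 17 were called. For DN3 against DN2 the count was 1 without normalization, 9 with a filter at the 75th percentile and 9 with trend and robust settings. For DN4 against DN3 it was 6 with no filter. Calls among all probe sets moved as well. In DN3 against DN2 these were 1715 of 24132 in the fit without a block and 769 of 24293 without normalization. They were 1603 of 12047 with the 75th percentile filter and 2044 of 24132 with trend and robust settings. In DN4 against DN3 they were 2710 of 24132 in the fit without a block and 1376 of 45037 with no filter. One probe set per gene gave 5 and 7 calls for DN4 against DN3 and DN4 against DN2, and averaging the probe sets of each gene gave 5 and 6, since at most 9 genes were tested. Among all genes, 1815 and 3857 of 11171 were called with 1 probe set per gene, and 1590 and 3315 of 9533 with averaging. Leaving out probe sets of suffix s, x or a left 6 to test, with 2, 2 and 5 called. Among all 19646 probe sets then tested, 1060, 1560 and 4349 were called. Sorts 1 and 2 alone gave 1 and 0 calls at the single steps (limma, 274 called among all at DN4 against DN3, where 11 members had an unadjusted p under 0.05) and 10 in DN4 against DN2. Sorts 3 and 4 alone gave 2, 1 and 11. Among all 21328 probe sets tested in sorts 1 and 2, 270, 274 and 2773 were called. Among all 21338 tested in sorts 3 and 4, 450, 369 and 3510 were called. Leaving out 1 array in turn gave 3 to 6, 5 to 11 and 13 to 16, with the 5 for DN4 against DN3 without replicate 2 of DN3. Calls among all probe sets then ranged over 1203 to 1718, 1495 to 2953 and 5176 to 6477, of 23755 to 23862 tested. Leaving out both arrays of lowest deposited signal, DN2 sort 2 and DN4 sort 1, chosen after seeing the data, gave 3, 8 and 13. Of all 23396 probe sets then tested, 1341, 2051 and 4953 were called. H2-Q2 was higher under all of these alternatives, and its call in DN4 against DN3 was lost in sorts 1 and 2 (adjusted p = 0.0786) and in sorts 3 and 4 (adjusted p = 0.0548).

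Of 1368 alternative values of single probe sets, 1207 kept their direction and side of the threshold, 39 gained a call, 90 lost one and 32 changed sign, none of these called. Without normalization, which shifts the median of all probe sets by 0.13, -0.44 and -0.32 in the 3 comparisons, B2m 1449289_a_at in DN3 against DN2 was 0.0172 and Psmb9 in DN4 against DN3 was -0.402. Psmb9 in DN4 against DN3 was also -0.00214 without suffix probe sets, -0.0318 in sorts 3 and 4, -0.107 without both low arrays and -0.107 to 0.0576 without 1 array. Psmb8 1422962_a_at was 0.0716 (DN4 against DN3) and 0.252 (DN4 against DN2) with median centring, -0.0628 (DN3 against DN2) in sorts 3 and 4, and, in DN4 against DN2, 0.0605 in sorts 1 and 2 and 0.00344 without both low arrays. Without 1 array it ranged over -0.0503 to 0.127, -0.14 to 0.0379 and -0.0625 to 0.0612. Psmb8 1444619_x_at was 0.301 (DN4 against DN2) in sorts 1 and 2, -0.41 (DN3 against DN2) and 0.076 (DN4 against DN3) in sorts 3 and 4, -0.144 and 0.00289 without both low arrays, and -0.144 to 0.249, -0.15 to 0.0031 and -0.237 to 0.156 without 1 array. Tap1 in DN4 against DN3 ranged over -0.0936 to 0.0413 without 1 array. Unless the number of probe sets or arrays is given as the reason, the cause was not tested.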
